A study of Drosophila melanogaster with 30 samples.

Results

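CG8343 and CG9676 are a pair of Drosophila genes chosen because their transcripts are abundant in the heads of young flies and almost without reads in the heads of aged flies. They are 2 of the 17559 genes in the count table, found there by gene name, and the rule used their head counts. Their young and aged head levels are therefore described without a test, and tests are given for the bodies, which the rule did not use. The data are poly(A) RNA-seq of single heads and single bodies from adult males of genotype Cantonized w1118, which carries a mutation of the eye-colour gene white and for which the labels name no transgene. The flies were kept under cycles of light and dark. Each of the 6 groups holds 5 libraries of individual flies. Young heads and young bodies came from 5-day-old flies with normal sleep. The aged NSF heads and bodies came from 25-day-old flies with normal sleep, and the aged SF heads and bodies from 25-day-old flies with fragmented sleep, which a sleep assay had picked out. The labels give 1 batch for all libraries and do not say whether a head and a body with the same number came from 1 fly.

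CG8343 (FBgn0040502) encodes a protein with a C-type lectin domain, a fold that in many animal proteins binds sugars. CG9676 (FBgn0030773) encodes a trypsin-like serine protease, a secreted enzyme family with large expansions in flies whose members work in digestion, in immune cascades and in other roles. Some family members have lost their catalytic residues and are called serine protease homologues. CG8343 lies on chromosome 2R, 6179726 to 6180356, plus strand, in 1 exon of 631 bases of which 546 are coding. CG9676 lies on chromosome X, 16699152 to 16700170, minus strand, in 2 exons with 964 exonic and 753 coding bases. It sits within the span of CG4678, which is on the plus strand, and shares 0 exonic bases with it. CG8343 shares 0 exonic bases with any annotated gene either.

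Heads held 1685034 to 3597530 counted reads and bodies 2458538 to 8060238. Levels are CPM, a gene's counts relative to the library total and scaled with TMM factors within each tissue, as mean ± SD over 5 flies. The labelled tissues carried their markers: 12 photoreceptor genes summed to between 36700 and 64500 CPM in heads, and 12 testis genes to between 390 and 6960 CPM in bodies but 2.5 to 10.8 CPM in heads. Among bodies, aged NSF body 2 had 818 CPM of photoreceptor genes against 73 to 99.3 CPM in the other bodies of its group, and aged NSF body 1 had the lowest testis sum, 390 CPM. Body results of CG8343 and CG9676 are given with and without those libraries where they moved.

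CG8343 reads in young heads 1 to 5 numbered 1957, 14732, 5224, 3895 and 7019. In aged NSF heads 1 to 5 they were 0, 1, 9, 3 and 2, and in aged SF heads 1 to 5 they were 6, 0, 0, 4 and 11. Every young head had more than 100 times the reads of any aged head, and the highest aged head, with 11 reads, was a fragmented sleeper. Mean levels were 2646 ± 1242 CPM in young, 1.07 ± 1.05 CPM in aged NSF and 1.76 ± 2.02 CPM in aged SF heads (SD, n = 5 each). The ratio of summed reads per scaled library, young over aged, was 2468 for aged NSF heads (95% counting interval 1496 to 4411) and 1592 for aged SF heads (1041 to 2572). Intervals and lower limits of this kind cover counting error only, not the differences between flies. In bulk RNA, fewer cells of a type and less RNA per cell cannot be told apart.

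CG9676 followed the same pattern at a lower level. Its reads in young heads 1 to 5 were 223, 4338, 1362, 727 and 1801. The 5 aged NSF heads held 0, 1, 0, 0 and 1 read and the 5 aged SF heads 0, 1, 0, 0 and 0. Thus 7 of the 10 aged heads had no read of the protease gene at all, against 3 of 10 for the lectin gene. Means were 659 ± 432 CPM in young, 0.188 ± 0.273 CPM in aged NSF and 0.0886 ± 0.198 CPM in aged SF heads (SD, n = 5 each). The ratio of young to aged NSF heads was 4766, with 2 reads left in aged NSF heads and a counting interval of 1319 to 39360. With 1 read left in the aged SF heads, the ratio of young to aged SF was 8606 with a counting interval of 1544 to 340000.

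**Figure D1:**
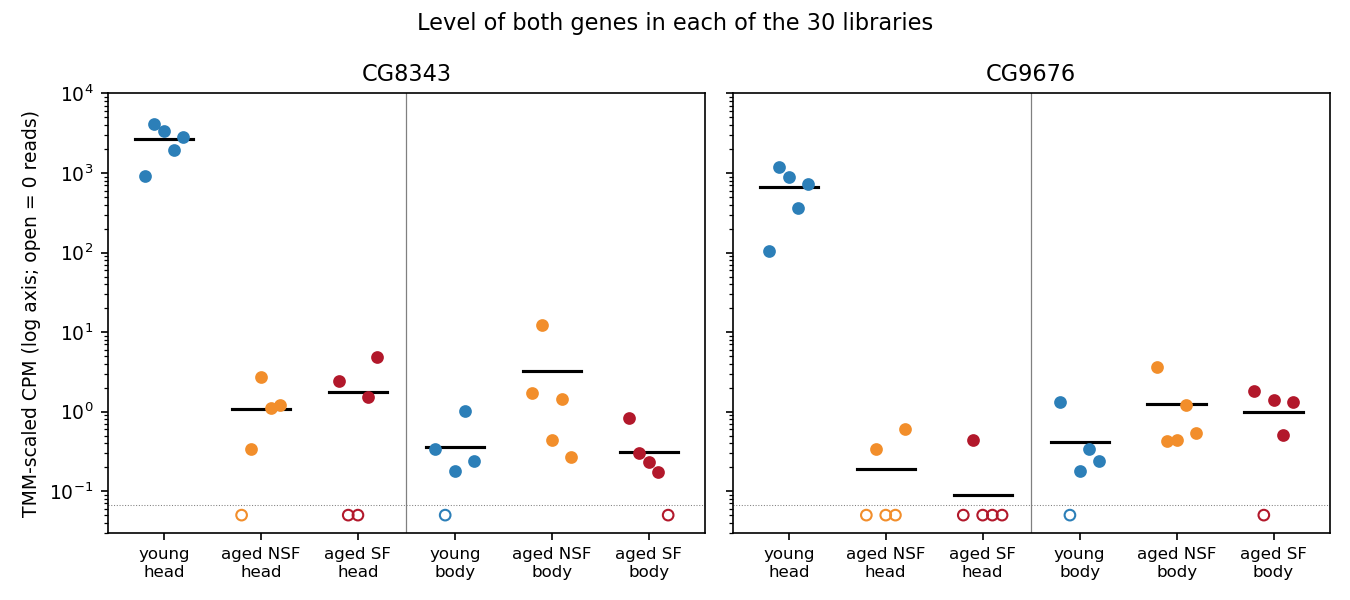
CPM (log axis) of CG8343 and CG9676 in each library of the 6 groups; points are flies, bars are group means, and open circles below the dotted line are libraries with 0 reads. The young heads stand at 905 to 4091 CPM for CG8343 and 103 to 1205 CPM for CG9676, and the 25 other libraries lie at or under 12.4 CPM.

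Per kilobase of exon, CG8343 was the 10th most abundant transcript in young heads, at 4193 CPM per kilobase, among 17253 genes with an annotated length. CG9676 ranked 150th at 684 CPM per kilobase. In aged NSF heads the lectin gene ranked 9374th and the protease gene 12489th. Young heads lay wholly above the aged heads for both genes, as they did for 5.31% of the 9088 head genes tested, a contrast that the choice of the pair already used. In the order of the 6 groups, young heads came first for both genes, and the other 5 groups overlapped their neighbours in the order. For CG8343 that order was aged NSF bodies, aged SF heads, aged NSF heads, young bodies and aged SF bodies. For CG9676 it was aged NSF bodies, aged SF bodies, young bodies, aged NSF heads and aged SF heads. These orders are by mean. Aged NSF bodies led them through aged NSF body 2 for CG8343 (12.4 CPM) and aged NSF body 1 for CG9676 (3.69 CPM). Their median for CG8343 was 1.44 CPM, below 1.52 CPM in aged SF heads. Their median for CG9676 was 0.535 CPM, below 1.31 CPM in aged SF bodies.

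Few genes had an on-and-off pattern of this kind. A mean of at least 20 CPM in young heads was found for 5904 genes, and 5 of these had a mean of at most 1 CPM in both aged head groups. They are CG9676, CG8329, CG11211, CG7829 and CG32523. CG8343 fell just outside that limit, at 1.07 and 1.76 CPM, and so did CG3088, at 0.978 and 1.55 CPM in aged NSF and aged SF heads. The reverse pattern, at most 1 CPM in young and at least 20 CPM in both aged groups, was also met by 5 genes. These were CecB, SPH93, CG18563, CG13646 and CR44138. CecB encodes an antimicrobial peptide and SPH93 a serine protease homologue. SPH93 had means of 0.082 CPM in young, 112.6 in aged NSF and 318 in aged SF heads.

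**Figure D2:**
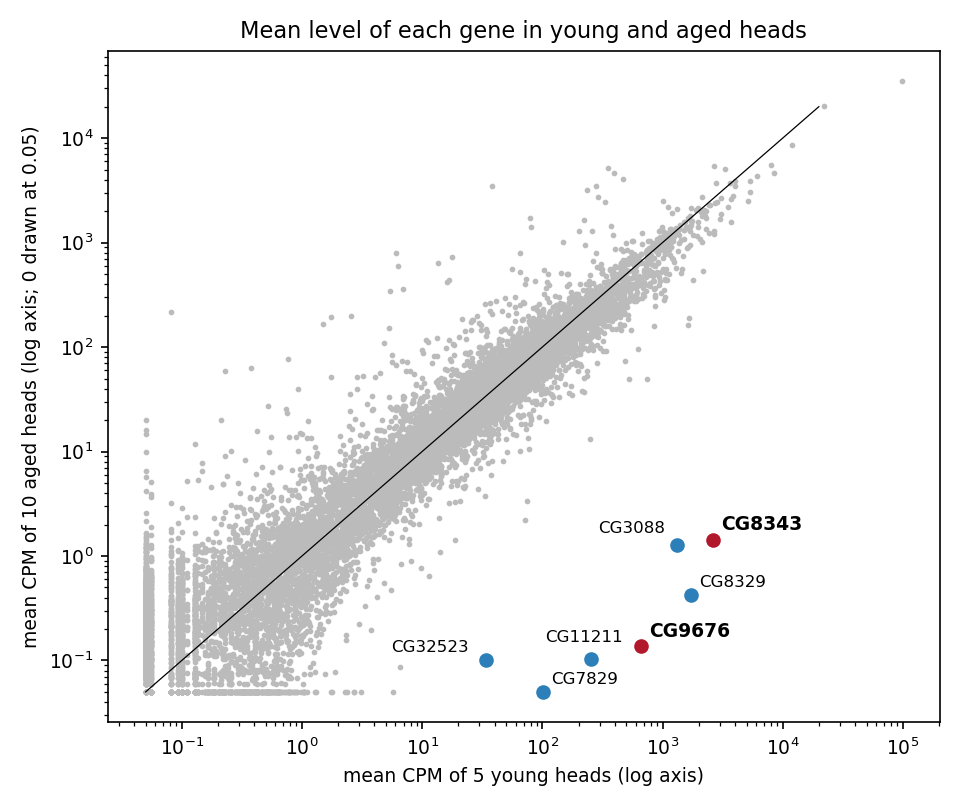
Mean CPM of 10 aged heads against mean CPM of 5 young heads (log axes) for the 15337 genes with head reads; the line marks equal levels and 0 is drawn at 0.05 CPM. CG8343 and CG9676 (red, bold) and 5 other genes (blue) lie far below the line, at 34.3 to 2646 CPM in young heads and under 2 CPM in aged heads.

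The genes marked in blue in that plot belong to the same protein families as the pair. Not every gene in that part of the plot is marked. CG30033, described at the end, had 71.6 CPM in young, 1.89 in aged NSF and 2.49 in aged SF heads. CG11211 encodes another C-type lectin domain protein. CG8329, CG7829 and CG32523 encode trypsin-like serine proteases and CG3088 a serine protease homologue. In young heads CG8329 had 1261, 10843, 3772, 2186 and 3576 reads, and all aged NSF heads together held 4 and all aged SF heads 7. CG3088 had 1310, 7498, 2507, 1799 and 3481 reads in young heads, with 11 reads left in aged NSF and 18 in aged SF heads. The lectin gene CG11211 had 105, 1658, 521, 257 and 724 reads in young heads and 1 read in each aged group. CG7829 had 46, 746, 205, 108 and 226 reads in young heads and no read in any aged head, so it was at least 500-fold higher than in aged NSF and at least 452-fold higher than in aged SF heads, with the floor set at 3 reads over a group. CG32523, the least abundant, had 1, 299, 79, 21 and 64 reads in young heads and 1 read in each aged group. These genes were picked on the same head contrast, and their values are a description.

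The likeness of these profiles was measured as Pearson's r of log2 CPM over all 30 libraries, among the 12814 genes whose mean reached 1 CPM. The 6 genes most like CG8343 were CG7829 (r = 0.975), CG8329 (0.966), CG11211 (0.960), CG3088 (0.957), CG9676 (0.945) and Mpcp (0.908), the mitochondrial phosphate carrier gene. The 6 most like CG9676 were CG11211 (r = 0.969), CG7829 (0.967), CG8329 (0.952), CG8343 (0.945), CG3088 (0.942) and Mpcp (0.939). All libraries share the contrast of 5 young heads with 25 libraries near 0, which sets most of each r. Mpcp does not drop to the floor: its means were 1425 ± 153 CPM in young heads, 487 ± 89.0 in aged NSF heads and 536 ± 57.1 in young bodies (SD, n = 5).

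Within the young group the flies differed widely, and the genes differed together. CG8343 stood at 905, 4091, 3384, 1969 and 2879 CPM in young heads 1 to 5, a range of 4.52-fold. CG9676 stood at 103, 1205, 882, 368 and 739 CPM, a range of 11.7-fold. Young head 1 was the lowest and young head 2 the highest for both genes, and both genes put the heads in the same order, 1, 4, 5, 3 and 2. CG8329, CG3088, CG11211, CG7829 and CG32523 gave that order too. Of the 9088 tested head genes, which leave out CG32523, 63 (0.693%) had it. CG3088 was picked by its r over libraries that include these heads, so its order is partly built in. The steeper gradient of the protease gene shows in the ratio of CG8343 to CG9676 CPM, which was 8.78 in young head 1 and 5.36 in young head 4 and between 3.40 and 3.90 in young heads 2, 3 and 5. CG32523 spanned 1 to 299 reads. The SD of log2(CPM + 1) over young heads was 0.860 for CG8343 and 1.41 for CG9676, and the median over the 1877 genes with at least 100 CPM in young heads was 0.243. Of those 1877 genes, 42 had a larger SD than CG8343 and 16 a larger one than CG9676. With young head 1 left out the young mean was 3081 CPM for CG8343 and 798 CPM for CG9676, and with young head 2 left out 2284 and 523 CPM.

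**Figure D3:**
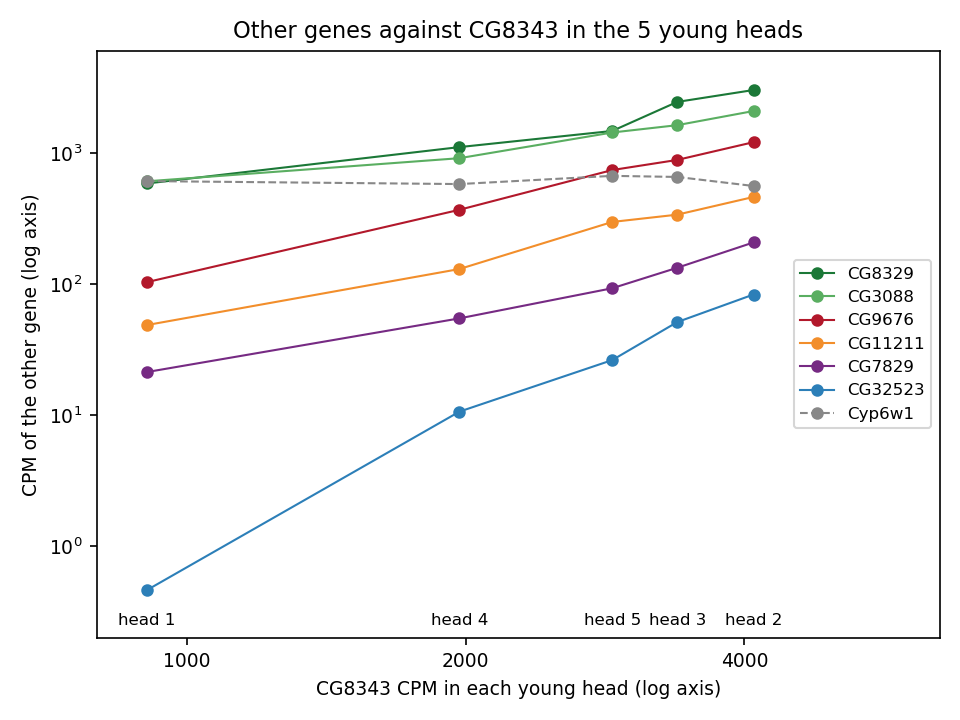
CPM of 6 genes of the same pattern, and of Cyp6w1 for comparison, against CPM of CG8343 in the 5 young heads (log axes; 1 point per fly, named at the bottom). The 6 genes go up from young head 1 to young head 2 in the order of CG8343, while Cyp6w1 stays between 558 and 667 CPM.

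The genes next to the pair on the chromosomes do not share its pattern, with 1 exception. CG11211 lies 569 bases beyond the end of CG8343, on the opposite strand, and is the lectin gene with the like profile described above. On the other side of CG8343, Cyp6w1, a cytochrome P450 gene, was at 613 ± 47.1 CPM in young heads and 333 ± 95.5 CPM in aged NSF heads (edgeR adjusted p = 0.0119) and at 546 ± 200.2 CPM in aged SF heads (adjusted p = 0.664 against young). CG14589 was a body gene, with 95.6 ± 16.2 CPM in young bodies and 0.590 ± 0.403 CPM in young heads. Ptr, a patched-related gene beyond CG11211, was at 13.3 ± 7.07 CPM in young and 10.6 ± 3.43 CPM in aged NSF heads.

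CG9676 lies in a row of trypsin-like genes in the span of CG4678, and in young flies it was the head gene of that row. Next to it, 275 bases away, is spheroide (now sphe), a serine protease homologue known from Toll signalling. It stood at 0.763 ± 0.839 CPM in young heads and 55.8 ± 9.41 CPM in young bodies. CG9673, the next gene, stood at 1.82 ± 2.32 CPM in young heads and 126.5 ± 23.0 CPM in young bodies. The rest of the row, CG4653 and CG9672, was added after the values had been seen and had means of 0.537 and 1.54 CPM in young heads and 62.2 and 76.3 CPM in young bodies. CG9676 had 659 CPM in young heads and 0.420 ± 0.529 CPM in young bodies. The surrounding gene CG4678 had 89.3 ± 18.0 CPM in young, 58.9 ± 5.91 in aged NSF and 56.1 ± 7.58 in aged SF heads. Both aged groups were called lower than young (edgeR adjusted p = 0.00564 and 0.00227). Sep4, a septin gene on the other side, had 85.4 ± 18.5, 61.4 ± 7.0 and 65.2 ± 12.7 CPM in the same order. It was called lower in aged NSF heads (edgeR adjusted p = 0.0417) and not in aged SF heads (0.093).

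**Figure D4:**
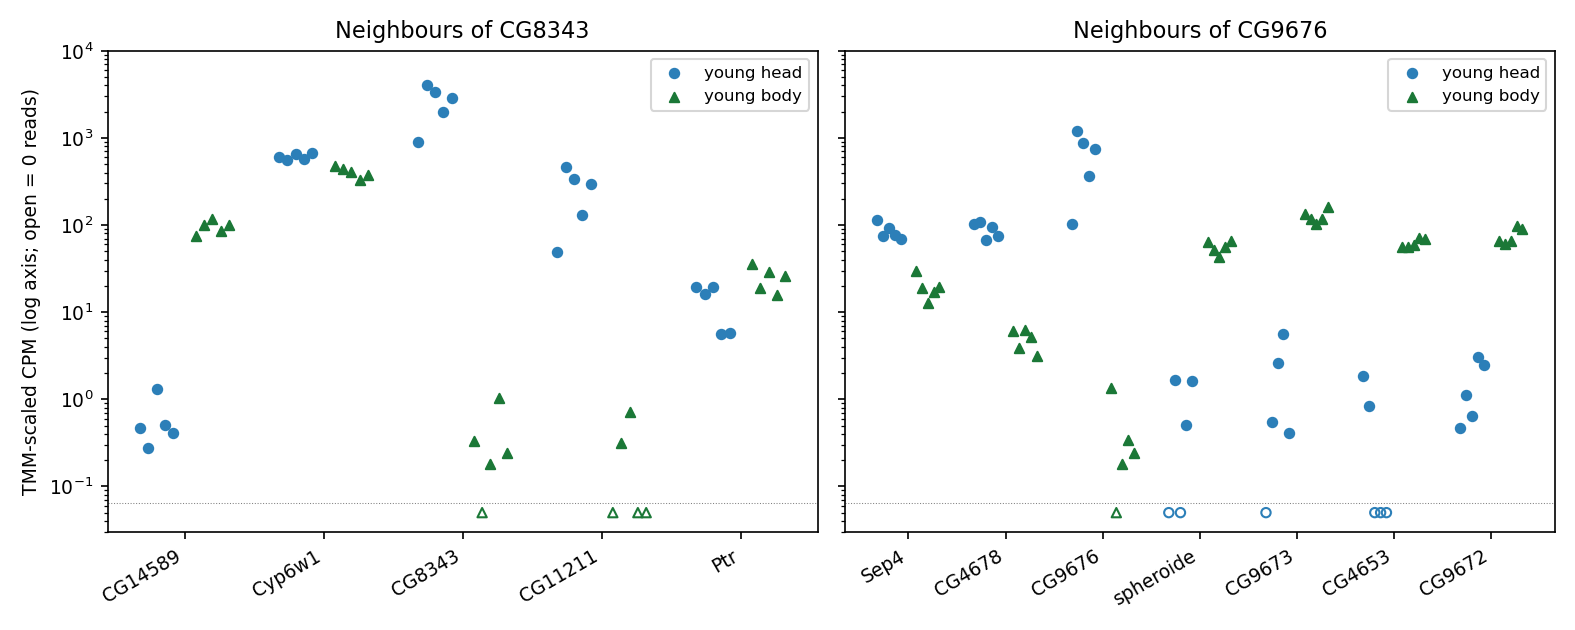
CPM (log axis) of CG8343, CG9676 and nearby protein-coding genes in the 5 young heads (circles) and 5 young bodies (triangles), left to right in order of gene start; open symbols have 0 reads. CG8343, CG11211 and CG9676 are high in heads and near 0 in bodies, while spheroide, CG9673, CG4653 and CG9672 are high in bodies and low in heads.

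In bodies both genes were near the limit of detection at either age. CG8343 had 2, 0, 1, 3 and 1 reads in young bodies 1 to 5, so that relative to the total counts it was 9272 times as abundant in young heads as in young bodies (counting interval 4500 to 23060). CG9676 had 8, 0, 1, 1 and 1 reads, for a ratio of 1519 (849 to 3044). Neither gene passed the filter on low counts in bodies, and the tests below come from a fit of all 15750 genes with any read in bodies. There 31.3% of all genes were called for aged NSF against young bodies (15.8% higher and 15.5% lower), 8.74% for aged SF against young bodies (6.04% higher and 2.7% lower) and 0.00635% between the aged groups.

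CG8343 reads in aged NSF bodies 1 to 5 were 6, 29, 2, 6 and 1, and in aged SF bodies 1 to 5 they were 7, 1, 1, 1 and 0. Aged NSF body 2 alone held 29 of the 44 reads of its group. The groups overlapped, with means of 0.357 ± 0.396 CPM in young, 3.26 ± 5.17 in aged NSF and 0.308 ± 0.316 in aged SF bodies (SD, n = 5). The log2 fold change of aged NSF over young bodies was 3.21 ± 1.07 (edgeR adjusted p = 0.0294), and it was 1.54 (adjusted p = 0.243) once aged NSF body 2 was left out. An exact two-sided permutation test of the CPM values gave p = 0.0635 (0.19 adjusted over 6 comparisons), where 0.0079 is the smallest p that 5 against 5 flies can give. The call was also lost without young body 2 (adjusted p = 0.0655), 3 (0.0677) or 5 (0.0604). Aged NSF body 2 is the library with 818 CPM of photoreceptor genes. It also held 26 of the 32 CG3088 reads and all 5 CG7829 reads of its group, in which no body had a CG11211 read. The part of these in the result was not tested. Aged SF against young bodies gave 0.14 ± 1.05 (edgeR adjusted p = 0.961) and aged SF against aged NSF bodies -3.07 ± 1.03 (0.176), or -1.46 (0.445) without aged NSF body 2. Without aged SF body 1, which held 7 of the 10 reads of its group, aged SF against young was -0.74 (0.776).

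CG9676 reads were 13, 1, 2, 5 and 2 in aged NSF bodies 1 to 5 and 15, 0, 6, 3 and 4 in aged SF bodies 1 to 5. All 3 groups overlapped, with means of 0.420 ± 0.529 CPM in young, 1.26 ± 1.40 in aged NSF and 1.0 ± 0.727 in aged SF bodies (SD, n = 5). The log2 fold change was 1.52 ± 0.95 for aged NSF over young (edgeR adjusted p = 0.234), 1.17 ± 0.94 for aged SF over young (0.449) and -0.35 ± 0.89 for aged SF over aged NSF (0.869). Without aged NSF body 1, the fly with 13 reads, the first was 0.58 (0.702) and the last turned to 0.61 (0.798). Without young body 1, which held 8 of the 11 young reads, the first was 2.76 (0.0598) and the second 2.43 (0.157). Without aged SF body 1 the last was -0.71 (0.744). No fall with age of the kind seen in heads was detectable for either gene in bodies, where the young level left little room for one.

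The wider families were read from lists of 32 C-type lectin genes and 81 trypsin-like serine protease genes. The protease list is incomplete: CG8329, CG3088, CG32523, SPH93, spheroide and CG4653, named above, are not on it. All are left out of its ranks and counts. Of these, CG8329, CG3088 and CG32523 were lower in aged than in young heads, and SPH93 was higher. Within the lectin list CG8343 had the highest level per kilobase in young heads, ahead of CG11211 (429.5 CPM per kilobase). Within the protease list CG9676 was the highest, ahead of CG7829 (104), but CG8329 with 1892 and the homologue CG3088 with 1591 CPM per kilobase were above it. In young bodies CG8343 and CG9676 ranked 25th and 65th of their lists. At least 20 CPM per kilobase was reached by 3 listed lectin genes in young heads and 14 in young bodies, and by 6 and 38 listed protease genes. Only 8 of the 31 other lectin genes and 13 of the 80 other listed protease genes passed the filter in heads. CG11211 and CG7829 passed through their young heads and were picked on that contrast, so their falls in the counts that follow are no more than a description. Between aged NSF and young heads 2 of those 8 lectin genes rose and 2 fell, and 3 of 13 protease genes rose and 1 fell (edgeR adjusted p under 0.05), where 11.4% of all tested genes rose and 11.5% fell, 22.8% in all. Their median log2 fold changes were -0.11 and 0.32, against 0.02 over all genes. Between aged SF and young heads 2 lectin genes rose and 1 fell, and 4 protease genes rose and 3 fell, where 13% of all genes rose and 12.2% fell, 25.2% in all, with medians of -0.18 and 0.29 against -0.00272 over all genes. The lectin genes that rose were CG7763 and Lectin-galC1, which had 8 and 14 reads in all young heads together and so passed the filter through their aged heads. CG7763 had 294 reads in aged NSF and 57 in aged SF heads, and Lectin-galC1 had 86 and 63.

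In bodies 26 other lectin genes and 58 other listed protease genes were tested. Between aged NSF and young bodies 3 lectin genes rose and 2 fell, and 11 protease genes rose and 26 fell, where 21.7% of all genes rose and 19.4% fell, 41.1% in all. The median of the protease genes was -1.0 against 0.03 over all genes. Jon74E (-2.28 ± 0.26, edgeR adjusted p = 3.31e-05) and Ser8 (-2.90 ± 0.45, 0.000288) fell, and CG11842 (2.54 ± 0.35, 0.000108) and CG6041 (1.09 ± 0.15, 0.000126) rose. Between aged SF and young bodies 1 lectin gene rose and 1 fell, and 3 protease genes rose and 1 fell, where 11.1% of all genes rose and 3.26% fell, 14.4% in all. CG7763, with 25 reads in all young bodies and 1500 in aged NSF bodies, rose in aged NSF (6.24 ± 0.56, adjusted p = 5.34e-06) and in aged SF bodies (4.13 ± 0.55, 0.000229). Changed lectin genes numbered 8 in place of 5 without aged NSF body 3 in the first comparison, and 4 or 5 in place of 2 without young body 5 or aged NSF body 1 in the second. Changed protease genes in the second comparison numbered 8, 7 and 2 in place of 4 without young body 1, aged NSF body 1 and aged SF body 5.

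Marker genes of other tissues were read beside the head values. Over all 9088 tested head genes 11.4% rose and 11.5% fell in aged NSF heads and 13% rose and 12.2% fell in aged SF heads, and 5.31% had every young head above every aged head. The sum of 10 fat body genes lay between 1170 and 5250 CPM in young, 262 and 600 CPM in aged NSF and 409 and 1340 CPM in aged SF heads, and all 10 had reads in each group. Of 7 tested fat body genes 3 fell and 1 rose in aged NSF heads and 1 fell and 1 rose in aged SF heads. Most of the young fat body sum came from the storage protein genes Lsp2 and Lsp1beta. Their means were 1658 and 486 CPM in young heads and 188 and 72.9 CPM in aged heads. Among young heads the fat body sum was highest in young heads 4 (5250 CPM) and 1 (3900 CPM), the flies with the least CG8343 and CG9676. None of the marker sums here or below ran in the order of the pair over young heads. Muscle sums were lowest in young head 1, as the pair was, and highest in young head 4. Neuron and photoreceptor sums were highest in young head 1. The sum of 22 midgut enzyme genes was 65 to 132 CPM in young, 578 to 1640 CPM in aged NSF and 589 to 1650 CPM in aged SF heads, the opposite direction, with 8 of the 22 at 0 in all young heads. Most of that sum came from the amylase genes Amy-d and Amy-p. Their means were 55.7 and 15.95 CPM in young heads and 554 and 423 CPM in aged heads. Of 3 tested midgut genes 2 rose in each aged group.

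Muscle, glia and hemocyte sums in aged heads lay wholly below those in young heads, and neuron sums overlapped slightly. Muscle genes (12) summed to 5510 to 6820 CPM in young, 3340 to 4440 in aged NSF and 3050 to 3760 in aged SF heads, and 7 and 8 of 11 tested fell. Neuron genes (9) summed to 3620 to 5690, 3090 to 3770 and 3340 to 3770 CPM in the same order, and 5 of 9 fell in each aged group. Glia genes (7) summed to 1760 to 2280, 1020 to 1580 and 1510 to 1680 CPM, with 4 and 3 of 7 falling and 1 rising. Hemocyte genes (10) summed to 569 to 693, 365 to 550 and 312 to 405 CPM, and 3 and 4 of 7 tested fell. Photoreceptor genes summed to 42400 to 64500, 36700 to 44000 and 42600 to 58300 CPM, and 5 and 4 of 12 fell while 1 rose in aged NSF heads. Male accessory gland genes (12) stayed between 5.29 and 19.2 CPM in all heads. The part of these tissues in the lower CG8343 and CG9676 levels of aged heads was not tested.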

How the data were processed

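Per the study's design text, the authors trimmed adapters with Trimmomatic, mapped reads to dm6 with STAR, removed alignments of mapping quality below 8 and non-primary alignments, and counted reads on exons with HTSeq-count. The deposited values used here are raw counts per gene, not normalized, 1 column per library. Tool versions are not given in the sources used here. The authors' own comparisons were not used.

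Libraries were grouped by title, and p-values weigh group differences against the estimated spread between these single flies. TMM scaling, filterByExpr (minimum count 10) and robust quasi-likelihood tests of edgeR 4.0.16 (R 4.3.3) were run within each tissue over its 3 groups, with Benjamini-Hochberg adjustment over all tested genes and a threshold of 0.05. That filter removed both genes from the bodies, so their body tests come from the same fit with no filter. The fits were tested on simulated data. Count ratios carry exact binomial 95% intervals. Replicate libraries differed beyond sampling noise (chi-square per gene of at least 4.42 in 60 pairs). Annotation is Ensembl release 115 on the dm6 assembly, which holds 17253 of 17559 gene IDs.

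The genes, gene lists and rules were chosen with earlier results of these data known. Genes named are the pair, 2 protein-coding neighbours on either side, the 6 most alike of each, genes past the 20 and 1 CPM limits, and up to 4 changed genes of each family per comparison; others are said to be added. Of the family lists 32 of 35 lectin and 81 of 86 protease symbols were in the table. Alternatives were RLE scaling, no filter, a filter of 5 CPM in 5 libraries, DESeq2 1.42.0, only the compared groups, a replicate block and each library left out.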

Additional observations from a re-analysis of the deposited data

Results flagged for a closer look

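In each of the 12 sets of 5 libraries (both genes in 6 groups) the highest and lowest fly were compared with the others. Among normally distributed values, chance alone meets this check in about 1 of 20 groups. That rate does not carry over to counts near 0, and 4 values stood far from the rest. CG8343 in aged NSF body 2 was at 12.4 CPM, against 1.70 CPM in the next body of that group. CG9676 was at 3.69 CPM in aged NSF body 1, against 1.20 CPM in the next. CG9676 was at 1.34 CPM in young body 1, from 8 reads, against 0.344 CPM in the next, and at 0.443 CPM in aged SF head 2, from 1 read, where the other aged SF heads had none, a pattern that the check always picks out.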

How the results depend on the processing

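The young head means of both genes moved by less than 1 SD under RLE scaling, under CPM by total counts and with each young head left out, from 2284 to 3081 CPM for CG8343 and from 522.9 to 798 CPM for CG9676. The log2 fold change of CG8343 in aged NSF over young bodies, 3.21, passed with RLE scaling (3.18) and DESeq2 (3.26). It did not pass in the fit of only the compared groups (3.22, adjusted p = 0.0545), with the replicate block (2.42, adjusted p = 0.121) or in the permutation test, chosen after seeing the data (difference of 2.90 CPM), and it ranged from 1.54 to 3.88 with each body left out; the cause was not tested. The other body comparisons passed under none of the alternatives run, and DESeq2 gave CG9676 no adjusted p for aged SF against aged NSF bodies. With each body left out CG8343 ranged from -0.74 to 0.81 for aged SF over young and from -3.94 to -1.46 for aged SF over aged NSF. CG9676 ranged from 0.58 to 2.76, from 0.81 to 2.43 and from -0.71 to 0.61 in the order of the report. The stricter filter removed both genes from the bodies and gave no value.

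Deviations of same-numbered libraries gave head correlations between -0.04 and 0.15 and body correlations between -0.12 and 0.43. They were over 0.1 in 3 and 5 of 15 pairs, the 3 pairs of bodies numbered 1 among them. Since not every pair was over 0.1 and the labels tie the numbers to nothing, the replicate block is given as a setting only. Between aged SF and young heads 1 lectin gene in place of 3 changed with only the compared groups. Between aged NSF and young bodies it was 3 in place of 5. Between aged SF and young bodies DESeq2 and the fit of only the compared groups called 5 lectin genes each in place of 2, and 9 and 8 protease genes in place of 4. Over all genes in that comparison 1727 changed, 3369 with only the compared groups, 3391 without aged NSF body 1, and 1118 and 1087 without young bodies 4 and 5.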

Other observations

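Another pair of genes chosen after the values were seen came close to the profile. CG11426, which encodes a lipid phosphate phosphatase-like protein, had 104, 5612, 1410, 459 and 2336 reads in young heads 1 to 5, a range of 32.4-fold in CPM with young heads 1 and 2 again lowest and highest. Unlike CG8343 and CG9676 it kept a level of 47.7 ± 6.93 CPM in aged NSF and 52.0 ± 14.1 CPM in aged SF heads (SD, n = 5), and of 29.5 ± 6.35 CPM in young bodies, so that young head 1, at 48.1 CPM, lay within the range of the aged heads. CG30033 had 71.6 ± 30.0 CPM in young, 1.89 ± 0.806 in aged NSF and 2.49 ± 1.54 CPM in aged SF heads, with young head 4 the highest and young head 2 the lowest, an order unlike that of the lectin and protease genes. It shares 36.8% of its exonic bases with an overlapping gene.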
